A study of Mus musculus with 20 samples.

Results

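Cytokine genes of the TNF, IL-6, IL-10 and IL-12 families and IL-15 were followed in BV-2 microglia, namely *Tnf*, *Il6*, *Il10*, *Il12b*, *Il23a*, *Il27*, *Ebi3*, *Lif*, *Osm* and *Il15*. They were chosen by symbol, and each symbol was matched to 1 Ensembl mouse gene, giving 10 of the 55487 genes in the count table. BV-2 is an immortalised microglial cell line set up from brain cultures of young C57BL/6 mice, and all groups are wild type. RNA-seq was available for 4 groups of 5 cultures: young untreated, young LPS-treated, aged untreated and aged LPS-treated BV-2 microglia. Young cells are controls at low passage, whereas aged cells had been kept in culture for months with repeated passaging. LPS, a bacterial ligand of Toll-like receptor 4, was given at 100 ng/ml for 6 hours. The aged cells are frozen aliquots of long-term cultivated BV-2 microglia, and the young cells were likewise thawed from aliquots, together with the aged ones. The aged cultures are thus a model of long passage of 1 cell line and not of microglia from old animals. Cultures carry batch numbers 1 to 5, with all 4 groups present once in each batch. Below, culture numbers are these batch numbers, and p-values describe the spread between the cultures. Whether the aged cultures come from separate long-term cultivations is not stated.

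Tumour necrosis factor is made early by microglia after Toll-like receptor stimulation and acts on neighbouring cells through 2 receptors. IL-6, oncostatin M and leukaemia inhibitory factor form the gp130 cytokine family, which signals through Janus kinases and STAT3, while IL-10 dampens the output of macrophages and microglia through the same STAT. The IL-12 family is built from paired subunits: *Il12b* encodes the p40 chain of IL-12 and IL-23, *Il23a* the p19 chain of IL-23, and *Il27* and *Ebi3* the 2 chains of IL-27. IL-15 belongs to the common gamma chain cytokines and is presented to lymphocytes by its alpha receptor on the producing cell. Such genes are known for promoters with NF-kappaB and C/EBP sites, and several carry AU-rich elements in the 3′ UTR that shorten the life of the mRNA.

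Promoters were found in RefSeq (GRCm38.p6) for 5 of the 10 genes (*Tnf*, *Il6*, *Il12b*, *Ebi3* and *Lif*). The 250 bases before the start are given for *Il6*, *Ebi3* and *Tnf*, because these genes were expressed and differed between the ages. Matches to the NF-kappaB consensus, to the AP-1 motif (TGANTCA), to the C/EBP motif (TTNNGNAA) and to the TATA box (TATAAA) are in capitals. Both strands were searched, and none of the matches in capitals overlap each other.
*Il6* promoter, chr5:30012864-30013113, plus strand: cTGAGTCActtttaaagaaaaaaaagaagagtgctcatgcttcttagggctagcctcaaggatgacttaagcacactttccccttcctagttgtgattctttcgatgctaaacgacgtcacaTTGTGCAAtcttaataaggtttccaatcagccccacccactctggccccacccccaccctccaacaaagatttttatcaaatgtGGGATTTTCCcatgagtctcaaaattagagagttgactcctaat
*Ebi3* promoter, chr17:55952373-55952622, plus strand: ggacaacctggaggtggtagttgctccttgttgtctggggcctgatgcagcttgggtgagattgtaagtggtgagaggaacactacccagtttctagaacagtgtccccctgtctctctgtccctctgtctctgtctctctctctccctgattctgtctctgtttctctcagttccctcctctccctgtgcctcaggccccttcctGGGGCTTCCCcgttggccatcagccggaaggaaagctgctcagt
*Tnf* promoter, chr17:35202008-35202257, minus strand: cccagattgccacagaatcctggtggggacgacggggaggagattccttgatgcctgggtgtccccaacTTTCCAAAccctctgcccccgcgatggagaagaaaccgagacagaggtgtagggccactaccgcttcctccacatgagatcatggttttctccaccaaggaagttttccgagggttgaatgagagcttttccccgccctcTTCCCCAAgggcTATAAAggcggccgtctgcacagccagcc
In *Il6* and in *Ebi3* the NF-kappaB match lies 44 to 35 bases before the RefSeq start, with the letters GGGATTTTCC and GGGGCTTCCC. The GENCODE annotation starts *Ebi3* further downstream, at base 55952640, so that the equal distance depends on the annotation. A match was also found in *Lif*, 178 to 169 bases before the start, so that 3 of the 5 promoters hold one, compared with 7.25% of the 32851 promoters of the same length in the table. The C/EBP motif is present in *Il6* and *Tnf* and in 36.8% of all promoters, and the AP-1 motif in *Il6* and *Lif* and in 6.75% of all promoters. The TATA box stands in *Tnf*, 29 to 24 bases before the start, and in 12.4% of all promoters. The cAMP response element (TGACGTCA, 1.55% of all promoters) matched none of the 5 promoters. These matches describe the letters of the windows only.

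The 3′ UTRs were read from the GENCODE M21 annotation of GRCm38. The core AU-rich sequence TTATTTATT occurs in 4 of the 10 genes (5 times in *Tnf*, 2 times each in *Il27* and *Lif* and 1 time in *Il23a*), compared with 8.07% of 10844 tested genes with an annotated 3′ UTR. The shorter pentamer ATTTA reached 17.5 per kilobase in *Il27* and 10.5 in *Tnf*, but 4.08 in *Ebi3* and 3.55 in *Il15*, against a median of 1.36 over those genes. The densest 30 bases of *Tnf* and *Il27* are shown, with each ATTTA in capitals, since these cytokine genes had the highest pentamer densities.
*Tnf* 3′ UTR, chr17:35199679-35199708, minus strand: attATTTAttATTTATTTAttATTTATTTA
*Il27* 3′ UTR, chr7:126589088-126589117, minus strand: agatATTTAtttcttggatATTTATTTAtt
The *Il27* stretch lies partly in exon sequence that is shared with *Apobr* on the opposite strand.

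Library totals ranged from 11371508 to 16829292 counts, and mitochondrial genes held 0.517% to 1.297% of them. Of 16 microglia and macrophage markers 15 were tested, including *Csf1r*, *Cd68* and *Spi1*, while *P2ry12* and *Cx3cr1* were low and *Sall1* was at 0 in every library. Markers of neurons and of T and B cells were at or below 3 counts in all 20 libraries, as were 4 of 5 astrocyte, 2 of 4 oligodendrocyte and 3 of 4 fibroblast and endothelial markers. The summed level of the microglia list ranged from 3310 to 4750 CPM (counts scaled to the size of the library) in young untreated, 3770 to 5290 in young LPS-treated, 2800 to 4050 in aged untreated and 3190 to 4550 in aged LPS-treated cultures. Its part in the cytokine results was not tested. Culture 3 of the aged LPS-treated group stood apart from its group, at a mean distance of 0.862 on the log2 CPM scale, against 0.546 to 0.611 for the other 4 cultures. Culture 1 of the young untreated group also stood apart, at 0.782 against 0.617 to 0.645. Fold changes and calls of the cytokine genes that rest on either culture are given with and without it.

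Of the 10 cytokine genes, 6 passed the filter on low counts and were tested among 12799 genes (*Tnf*, *Il6*, *Il27*, *Ebi3*, *Osm* and *Il15*), and *Il6* and *Il27* passed through their LPS-treated groups. The other 4 (*Il10*, *Il12b*, *Il23a* and *Lif*) never exceeded 8 counts in a library. Levels per length were compared as RPKM (CPM per kilobase of exon). In young LPS-treated cultures *Tnf* stood at 502 ± 123 RPKM (SD, n = 5), followed by *Ebi3* at 32.1 ± 6.48, *Osm* at 22.6 ± 3.37, *Il27* at 19.7 ± 9.80, *Il6* at 13.6 ± 6.82 and *Il15* at 6.28 ± 2.97. From *Ebi3* downwards each neighbour in this order overlapped the next between cultures, whereas *Tnf* was above the rest in every culture. In aged LPS-treated cultures the order was *Tnf* at 273 ± 44.3 RPKM, *Osm* at 14.3 ± 1.72, *Ebi3* at 12.2 ± 2.28, *Il6* at 2.12 ± 1.53, *Il27* at 1.89 ± 1.36 and *Il15* at 1.60 ± 1.21 (SD, n = 5). Here *Osm* overlapped *Ebi3*, and *Il6*, *Il27* and *Il15* overlapped each other, but every culture had more *Ebi3* than *Il6* per length. By mean RPKM *Tnf* ranked 76th of the tested genes in young and 144th in aged LPS-treated cultures, and 3806th and 5047th without LPS.

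**Figure D1:**
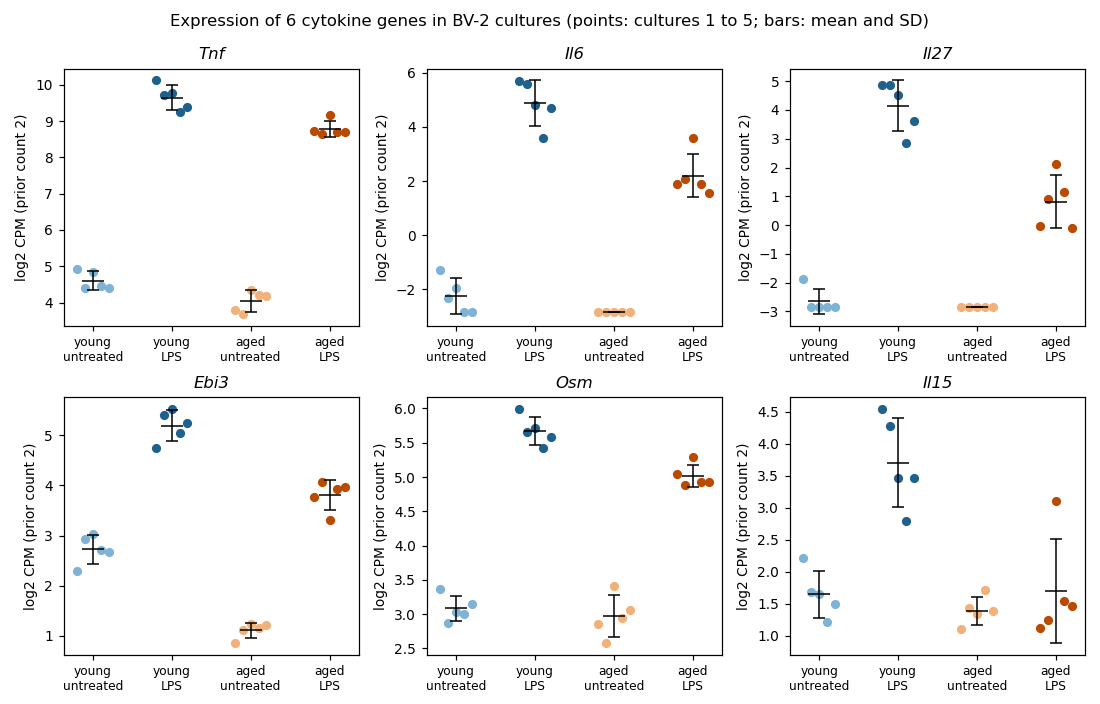
Levels of the 6 tested cytokine genes in log2 CPM (vertical axis, prior count 2) in the 4 groups of BV-2 cultures, with 1 point per culture in the order of cultures 1 to 5 and bars for the mean and SD. All 6 genes are lower in aged than in young LPS-treated cultures on average, and culture 3 of the aged LPS-treated group lies above its group for *Tnf*, *Il6* and *Il15*.

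The comparison of LPS-treated with untreated young cultures asked which of these cytokines BV-2 microglia induce. All 6 tested genes rose, and in each of them every LPS-treated culture was above every untreated one. Of all tested genes 31.2% were called higher at an adjusted p below 0.05 (edgeR's quasi-likelihood test), and 23.9% had every LPS-treated culture above every untreated one. In the aged cultures 5 of the 6 rose, all but *Il15*, and in these 5 the groups did not overlap, compared with 27.5% of all tested genes called higher and 21.0% without overlap. Because *Il6* and *Il27* passed the filter through the LPS-treated groups, these shares are a description. Both responses have their own untreated controls.

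*Tnf*, the most abundant of these transcripts, had counts of 436, 329, 473, 331 and 316 in young untreated cultures 1 to 5, and 11381, 10073, 12645, 8225 and 9040 after LPS. In aged cultures 1 to 5 the counts were 210, 189, 354, 337 and 271 without LPS and 6037, 4859, 8350, 5382 and 5780 with it. No culture of one group overlapped another group in CPM, so that the 4 groups stood in the order young LPS, aged LPS, young untreated and aged untreated. The response was a log2 fold change of 5.07 ± 0.18 (SE) in young cultures (edgeR adjusted p = 1.43e-16) and 4.74 ± 0.18 in aged cultures (edgeR adjusted p = 7.82e-16). Within batches the log2 response lay between 4.80 and 5.30 in young and between 4.48 and 4.96 in aged cultures.

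*Il6*, the pyrogenic cytokine that gives the gp130 family its best known member, was almost silent without LPS. Its counts in young cultures 1 to 5 were 4, 1, 2, 0 and 0 without LPS and 526, 575, 402, 161 and 350 with it. Aged untreated cultures had 0 counts throughout, and the aged LPS-treated cultures had 51, 49, 170, 46 and 39. Over the group, LPS-treated young cultures held 348 times the *Il6* of untreated ones per scaled library (2014 against 7 summed counts, 95% interval 168 to 866, counting error only), and the aged ones were at least 142-fold higher than 3 counts over the untreated group (355 against 0 summed counts). Of the 7 untreated counts 4 come from young culture 1, and without it the young value is 658 (2014 against 3 summed counts, 95% interval 225 to 3190). Without LPS-treated culture 3 the aged value is at least 94.1-fold. Both responses were called (edgeR adjusted p = 3.36e-09 in young and 5.58e-06 in aged cultures).

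*Osm* encodes oncostatin M, which activated macrophages release and which signals through gp130 with the oncostatin M receptor. Its counts were 148, 112, 133, 119 and 131 in young untreated and 641, 609, 758, 571 and 648 in young LPS-treated cultures. Aged cultures held 110, 87, 184, 137 and 123 counts without LPS and 471, 358, 566, 393 and 419 with it. *Osm* was thus present in all groups at rest, with the untreated ages overlapping and the LPS-treated ages apart in CPM (42.6 to 63.3 in young, 29.5 to 39.0 in aged). It rose by 2.61 ± 0.13 on the log2 scale in young (edgeR adjusted p = 5.83e-14) and by 2.05 ± 0.13 in aged cultures (edgeR adjusted p = 8.71e-12). *Lif*, the neighbour of *Osm* on chromosome 11 with 16530 bases between them, held at most 4 counts in any library.

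The chains of IL-27 did not behave alike at rest. *Il27*, the helical chain, had 2 counts in young untreated culture 1 and 0 in the other 4, and 295, 350, 331, 95 and 166 in young LPS-treated cultures 1 to 5. Aged cultures held 0 counts without LPS and 12, 21, 61, 27 and 11 with it. *Il27* was therefore detected almost only after LPS, with 747 times the untreated level in young cultures (1237 against 2 summed counts, 95% interval 206 to 6180, counting error only). Both untreated counts come from culture 1, and without it the young value is at least 404-fold above 3 counts over the untreated group. In aged cultures it was at least 52.8-fold above 3 counts over the untreated group (132 against 0 summed counts), and at least 36.1-fold without LPS-treated culture 3. The edgeR adjusted p was 4.13e-09 in young and 1.04e-04 in aged cultures. *Il27* shares 103 exon bases with *Apobr* on the opposite strand, and the strand setting used in counting is not given. *Apobr* had 653 to 1052 counts in young untreated, 2433 to 4311 in young LPS-treated, 633 to 933 in aged untreated and 1513 to 2668 in aged LPS-treated cultures, so that, like *Il27*, it had more counts with LPS in both ages, and its LPS-treated ages overlapped with the lower range in aged cultures. Its part in the *Il27* counts was not tested, and in aged untreated cultures *Il27* had 0 counts.

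*Ebi3*, the receptor-like chain of IL-27, was present in every library. Its counts were 69, 117, 134, 97 and 94 in young untreated and 270, 506, 663, 443 and 512 in young LPS-treated cultures. Aged cultures held 26, 30, 39, 38 and 33 counts without LPS and 192, 201, 142, 194 and 214 with it. Aged cultures were below young ones in CPM with no overlap in both conditions, and LPS raised both ages. The log2 response was 2.49 ± 0.15 in young (edgeR adjusted p = 1.96e-12) and 2.77 ± 0.18 in aged cultures (edgeR adjusted p = 1.72e-11). The antisense gene *Gm16712*, which shares 270 exon bases with *Ebi3*, had at most 36 counts in a library. It had 3 to 8 counts in young untreated and 21 to 36 in young LPS-treated cultures. Aged cultures held 1 to 8 without LPS and 6 to 20 with it, so that its ranges, like those of *Ebi3*, were higher with LPS. Its part in the *Ebi3* counts was not tested.

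*Il15* is known in microglia and macrophages as a cytokine that sustains natural killer and memory T cells. Counts were 65, 48, 50, 33 and 40 in young untreated and 234, 231, 158, 91 and 149 in young LPS-treated cultures. Aged cultures held 31, 38, 42, 57 and 37 counts without LPS and 29, 27, 123, 36 and 36 with it. Young cultures responded with no overlap, rising by 2.19 ± 0.34 on the log2 scale (edgeR adjusted p = 6.41e-06). In aged cultures the value was 0.54 ± 0.39 and was not called (edgeR adjusted p = 0.248), and it rested on culture 3, without which it was -0.06 (edgeR adjusted p = 0.888). Within batches the aged log2 response was 1.77 in batch 3 and between -0.19 and 0.08 in the other 4 batches.

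**Figure D2:**
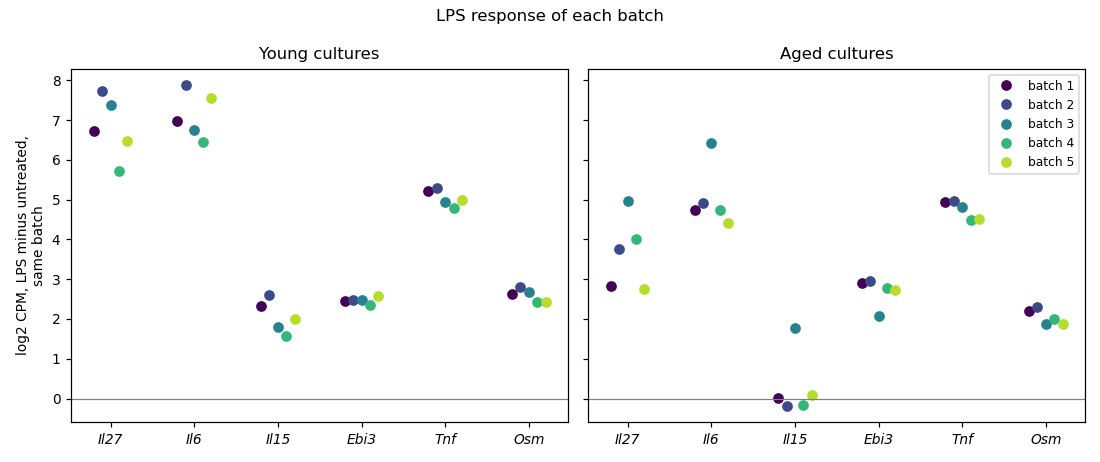
LPS response of each batch, as log2 CPM of the LPS-treated minus the untreated culture of the same batch (vertical axis), for 6 cytokine genes in young (left) and aged (right) cultures, coloured by batch. *Tnf* and *Osm* spread little between batches, as does *Ebi3* in young cultures. In aged cultures *Ebi3* is at 2.07 in batch 3 and at 2.74 to 2.95 in the other batches. *Il15* in aged cultures is near 0 in all batches but batch 3, at 1.77.

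The remaining 4 genes were at or near the floor of detection, taken as 3 counts. *Il10*, the anti-inflammatory member, had counts of 1, 3, 5, 0 and 0 in young LPS-treated cultures and 0, 0, 0, 1 and 0 in aged ones. *Il12b* had 0, 8, 1, 0 and 6 counts in young LPS-treated and 0, 2, 2, 0 and 0 in aged LPS-treated cultures, and 0 in all 10 untreated cultures. *Il23a* had 6, 5, 8, 1 and 3 in young LPS-treated and 1, 2, 0, 3 and 0 in aged LPS-treated cultures. Thus each of these 3 exceeded 3 counts only in young LPS-treated cultures, as did *Lif* in 1 of them. When no filter was applied, *Il12b* and *Il23a* were called higher after LPS in young cultures (edgeR adjusted p = 0.00337 and 0.0254), while *Il10* and *Lif* were not (edgeR adjusted p = 0.301 and 0.254). None of the 4 was called between aged and young LPS-treated cultures in that fit, with the lowest edgeR adjusted p at 0.0631 for *Il23a*, although *Il10* and *Il23a* had an unadjusted p of 0.0153 and 0.00826. A difference between the ages was thus not detectable for them at this depth.

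The comparison of aged with young untreated cultures set resting long-term cultivated cells against low-passage controls. In it 2 of the 6 tested genes were lower and none higher. Of all tested genes 7.81% were called lower, 3.71% higher and 11.5% in either direction. *Ebi3* fell by 1.69 ± 0.20 on the log2 scale, which is 3.23-fold (edgeR adjusted p = 5.84e-06), from 6.60 ± 1.28 to 2.04 ± 0.218 CPM (SD, n = 5). *Tnf* was 1.47-fold lower, at 16.6 ± 3.28 against 24.5 ± 4.44 CPM, which is -0.56 ± 0.17 on the log2 scale (edgeR adjusted p = 0.0385). The ages did not overlap in either gene, as in 6.63% of all tested genes, and both were lower in 5 of 5 batches. The call of *Tnf* was lost without young untreated culture 1, where it was at -0.47 on the log2 scale (edgeR adjusted p = 0.109), and when replicate number 1, 2, 3 or 5 was left out of all groups (edgeR adjusted p = 0.056 to 0.146). *Osm* at -0.09 ± 0.14 (edgeR adjusted p = 0.757) and *Il15* at -0.29 ± 0.39 (edgeR adjusted p = 0.711) did not pass the test. *Il6* and *Il27* were at 0 in the aged and near 0 in the young untreated cultures, so that no fold is given. In these bulk cultures, fewer expressing cells and less RNA per expressing cell cannot be told apart.

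Under LPS all 6 tested genes were lower in aged than in young cultures, compared with 15.0% of all tested genes called lower, 14.0% called higher and 29.0% called in either direction. *Il27* was 10.2-fold lower, at 1.93 ± 1.39 against 20.1 ± 10.0 CPM (SD, n = 5), or -3.35 ± 0.41 on the log2 scale (edgeR adjusted p = 8.96e-06). *Il6* was 6.31-fold lower, at 5.15 ± 3.70 against 33.0 ± 16.6 CPM, or -2.66 ± 0.39 on the log2 scale (edgeR adjusted p = 4.43e-05). These differences were the steepest of the 6, in genes that were nearly silent at rest. *Il15* was 3.81-fold lower, at 3.63 ± 2.73 against 14.2 ± 6.71 CPM, or -1.93 ± 0.34 on the log2 scale (edgeR adjusted p = 1.52e-04). *Ebi3* was 2.64-fold lower, at 14.1 ± 2.64 against 37.0 ± 7.48 CPM, or -1.40 ± 0.14 on the log2 scale (edgeR adjusted p = 3.68e-07). The genes with the highest counts moved less: *Tnf* was 1.84-fold lower (447 ± 72.6 against 822 ± 201 CPM, edgeR adjusted p = 9.15e-05) and *Osm* 1.57-fold lower (32.5 ± 3.91 against 51.3 ± 7.66 CPM, edgeR adjusted p = 1.84e-04).

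In 5 of these 6 genes every aged LPS-treated culture was below every young one, as in 8.16% of all tested genes. *Il15* was the exception, because aged culture 3 had 8.48 CPM and young culture 4 had 6.79 CPM. Each of the 6 was lower in all 5 batches, with batch differences on the log2 CPM scale from -1.41 to -0.56 for *Tnf*, from -3.81 to -1.23 for *Il6* and from -3.42 to -0.36 for *Il15*. Without aged LPS-treated culture 3 the log2 fold change was -3.23 for *Il6* and -2.53 for *Il15*, against -2.66 and -1.93 with it, and all 6 genes were still called in edgeR. The median log2 fold change of all tested genes in this comparison was 0.01.

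**Figure D3:**
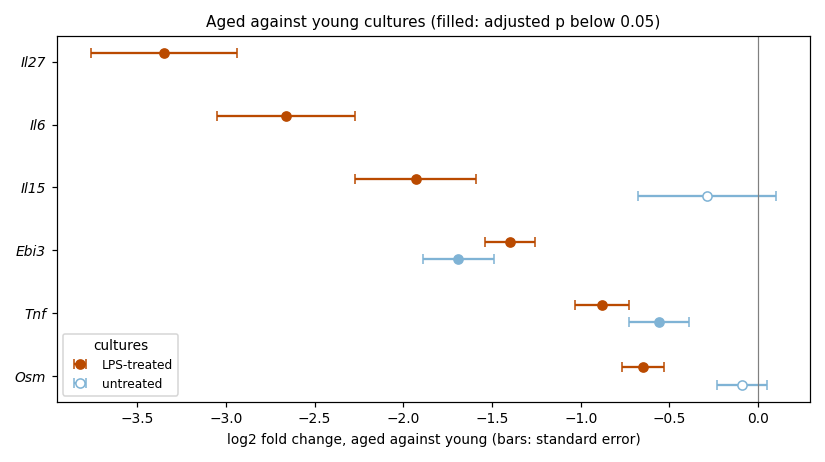
Log2 fold change of aged against young cultures (horizontal axis, bars for the standard error) for LPS-treated (orange) and untreated (blue) BV-2 microglia, with filled points where the edgeR adjusted p is below 0.05. *Il27* and *Il6* have no untreated point because they were at or near 0 counts there, and *Il15* and *Osm* have open untreated points at -0.29 and -0.09.

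The difference of the LPS responses asks whether aged cultures respond less than young ones from their own baseline. None of the 6 genes was called in edgeR, compared with 6.39% of all tested genes, although 2 of them, *Il15* and *Osm*, had an unadjusted p below 0.05. *Il15* had a difference of -1.65 ± 0.52 on the log2 scale (edgeR adjusted p = 0.0614) and *Osm* of -0.56 ± 0.18 (edgeR adjusted p = 0.0734). In both genes the aged response was the smaller one in 5 of 5 batches. The differences ran from -0.80 to -0.42 for *Osm* and from -2.78 to -0.04 for *Il15*. For *Il15* the value of -0.04, in batch 3, is close to no difference. With the replicate number as a block both were called, at an edgeR adjusted p of 0.04995 for *Il15* and 0.024 for *Osm*, and DESeq2 without a block called both as well (adjusted p = 0.0324 and 0.0279). Without aged LPS-treated culture 3 both were called in edgeR, at -2.25 for *Il15* (adjusted p = 0.00162) and -0.64 for *Osm* (adjusted p = 0.028), and also without young untreated culture 1 (adjusted p = 0.04784 and 0.0431). Without a filter on low counts *Il15* was called (edgeR adjusted p = 0.0168) and *Osm* was not (0.0607). Leaving out cultures from all groups mostly gave no call: *Osm* had an edgeR adjusted p of 0.078 to 0.211 with any replicate number left out, and *Il15* of 0.114 to 0.335 without number 1, 2, 4 or 5 but 0.00725 without number 3. With other scalings neither gene was called, at an edgeR adjusted p of 0.0605 and 0.05491 for *Il15* and 0.0668 and 0.0802 for *Osm*.

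*Tnf* and *Ebi3*, which were already lower at rest, had differences of -0.32 ± 0.23 (edgeR adjusted p = 0.488) and 0.29 ± 0.24 (edgeR adjusted p = 0.589). For *Tnf* the aged response was smaller in 5 of 5 batches, by 0.10 to 0.45, and for *Ebi3* it was larger in 4 of 5. *Ebi3* thus differed between the ages by a log2 fold change of -1.69 without and of -1.40 with LPS. For *Il6* and *Il27* the fitted difference depends on untreated groups at or near 0, and no value is given.

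Count ratios within a library do not depend on how libraries were scaled, and 4 of them were compared between aged and young LPS-treated cultures. The log2 ratio of *Il6* to *Tnf* was -4.43, -4.13, -4.97, -5.67 and -4.69 in young and -6.87, -6.62, -5.61, -6.85 and -7.19 in aged cultures 1 to 5. Aged cultures had the lower ratios, with 1 aged culture (culture 3) just above 1 young culture (culture 4). The difference was -1.85 (exact two-sided permutation test, p = 0.0159, adjusted p = 0.0476 over the 4 ratios), so that *Il6* was reduced more than *Tnf*. The log2 ratio of *Ebi3* to *Il27* was -0.13, 0.53, 1.00, 2.22 and 1.62 in young and 3.94, 3.23, 1.21, 2.82 and 4.22 in aged cultures. In aged cultures the IL-27 chains were thus further apart in counts, by 2.04 (exact two-sided permutation test, p = 0.0238, adjusted p = 0.0476), with culture 3 inside the young range. When the differences were taken within replicate numbers as a block, neither ratio passed (exact sign-flip permutation test over 5 pairs, adjusted p = 0.125 for both, where 5 pairs allow no p below 0.0625). The ratios of *Il10* to *Tnf* and of *Il12b* to *Il23a* rest on a few counts and did not differ detectably (exact permutation test, adjusted p = 0.508 for both).

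**Figure D4:**
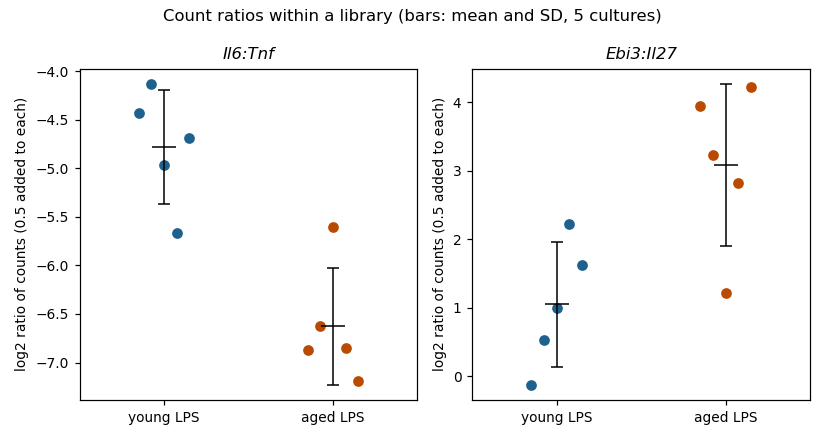
Log2 count ratio of *Il6* to *Tnf* (left) and of *Ebi3* to *Il27* (right) within each LPS-treated library, with 0.5 added to each count, 1 point per culture in the order of cultures 1 to 5 and bars for the mean and SD. The mean of *Il6* to *Tnf* is -4.78 in young and -6.63 in aged cultures, and that of *Ebi3* to *Il27* is 1.05 and 3.09.

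The genes most like each member over all 20 libraries were named by Pearson's r of log2 CPM, given as a description, since the same 4 groups shape every gene. *Tnf* was most like *Tnfaip3* (r = 0.998), which encodes the A20 inhibitor of NF-kappaB signalling, *Tnip1* (r = 0.997), an A20-binding partner, and *Itga5* (r = 0.997). *Il6* was most like the interferon-inducible *Ifi205*, *Gm20547* and *Rnf114* (r = 0.995 each), and *Il27* like *Ptprc* (r = 0.991), *Ifi205* and *Apobec3* (r = 0.988 each). *Ifi205* was thus among the closest genes of both. *Ebi3* was most like *Ncf4* (r = 0.989) and *Tfec* (r = 0.974), and *Osm* like *Epsti1* (r = 0.994), *M6pr* and *Rnf14* (r = 0.992 each). *Il15* had the lowest values, with *Arel1* (r = 0.965), *Rilpl1* (r = 0.959) and *Slc7a2* (r = 0.946). After the group means were subtracted, which leaves the spread between cultures of a group, the closest genes to *Il15* were *Cd274* (r = 0.946), the PD-L1 checkpoint ligand, *Rilpl1* (r = 0.934) and *Arel1* (r = 0.929). Those of *Il6* were *Yipf4* (r = 0.923), *Tap1* (r = 0.922) and *Tpst1* (r = 0.920), and those of *Il27* were *Gm20547* (r = 0.922), *Cfb* (r = 0.914) and *Tpst1* (r = 0.910). *Slc31a2* was the closest gene to both *Tnf* (r = 0.885) and *Osm* (r = 0.890), followed by *Alas1* (r = 0.884) and *Tnfaip3* (r = 0.867) for *Tnf* and by *Cep83os* and *Mrpl52* (r = 0.867 each) for *Osm*. For *Ebi3* they were *Gmfg* (r = 0.872), *Ptpn7* (r = 0.860) and *Ier2* (r = 0.847). All these correlations include aged LPS-treated culture 3, which stood apart for *Tnf*, *Il6* and *Il15*. How far they rest on that culture was not tested.

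The receptor chains for these cytokines were tested in 10 of 15 cases, of which 5 were lower in aged than in young LPS-treated cultures and none higher, compared with 15.0% and 14.0% of all tested genes. *Il15ra*, the presenting receptor of IL-15, was 6.47-fold lower, at 0.686 ± 0.348 against 4.60 ± 1.64 CPM (edgeR adjusted p = 2.87e-06). It was thus reduced together with its ligand. *Il10ra* was 2.08-fold lower (14.6 ± 1.76 against 30.5 ± 4.52 CPM, edgeR adjusted p = 6.35e-07), and the TNF receptors *Tnfrsf1b* and *Tnfrsf1a* were 1.87-fold (edgeR adjusted p = 2.50e-05) and 1.39-fold lower (edgeR adjusted p = 6.19e-06). The median log2 fold change of the 10 chains was -0.26, against 0.01 over all tested genes. Already without LPS 4 of the 10 were lower and none higher in aged cultures, at a median of -0.22. Of all tested genes 7.81% were lower and 3.71% higher there. In the difference of the LPS responses 1 chain was lower (*Tnfrsf1a*) and 1 higher (*Il12rb2*), compared with 6.39% of all tested genes called.

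Downstream of the receptors, 18 of 19 Janus kinases, STATs and SOCS genes were tested, and 10 were lower and 1 higher in aged LPS-treated cultures (median log2 fold change -0.24), compared with 15.0% and 14.0% of all tested genes. *Cish* was 2.67-fold lower (0.911 ± 0.677 against 2.51 ± 0.972 CPM, edgeR adjusted p = 0.00424). *Stat2* was 2.52-fold lower (52.7 ± 24.3 against 134 ± 24.9 CPM, edgeR adjusted p = 1.68e-05). The feedback inhibitors *Socs3* and *Socs1*, which restrain gp130 and interferon signalling, were 1.94-fold (edgeR adjusted p = 9.23e-04) and 1.98-fold lower (edgeR adjusted p = 0.00196). Without LPS *Cish* had 0.362 CPM in young and 0.327 in aged cultures, and *Socs1* had 0.268 and 0.447. Both passed the filter through LPS-treated groups, so their values are a description. *Socs4* was the gene that was higher, by 1.27-fold (edgeR adjusted p = 1.19e-04). In the difference of the LPS responses, in which 6.39% of all tested genes were called in either direction, 4 of these genes were lower and none higher, among them *Jak2* at -0.69 ± 0.17 (edgeR adjusted p = 0.0132) and *Stat3* at -0.37 ± 0.10 (edgeR adjusted p = 0.0239).

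Of 29 transcription factors known to act on cytokine genes 27 were tested, and 19 were lower and none higher in aged LPS-treated cultures (median log2 fold change -0.30), compared with 15.0% and 14.0% of all tested genes. The largest differences were in *Batf2*, 3.85-fold lower (edgeR adjusted p = 1.09e-06), *Irf7*, 2.21-fold lower (edgeR adjusted p = 2.30e-04), and *Irf1*, 2.15-fold lower (edgeR adjusted p = 2.00e-05). *Prdm1* followed, 1.65-fold lower (edgeR adjusted p = 5.48e-05). *Batf2* had 0.107 CPM in young and 0.062 in aged untreated cultures. It passed the filter through LPS-treated groups, so its value is a description. Without LPS 10 of the 27 were lower and 1 higher in aged cultures, compared with 7.81% and 3.71% of all tested genes. For the difference of the LPS responses 3 of the 27 were lower and none higher, compared with 6.39% of all tested genes called.

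Genes of cytokine mRNA decay and of TNF shedding were tested in 20 of 23 cases, with 7 lower and 2 higher in aged LPS-treated cultures (median log2 fold change -0.02), compared with 15.0% and 14.0% of all tested genes. *Zfp36*, which encodes tristetraprolin and binds AU-rich elements such as those shown for *Tnf*, was 2.10-fold lower, at 55.6 ± 9.91 against 117 ± 21.5 CPM (edgeR adjusted p = 1.19e-06). Its relative *Zfp36l2* was 1.28-fold higher (247 ± 12.4 against 193 ± 16.8 CPM, edgeR adjusted p = 2.23e-05). *Rhbdf2*, needed for the release of TNF by ADAM17, was 1.36-fold lower (edgeR adjusted p = 6.11e-06), and *Zc3h12a*, the Regnase-1 endonuclease that degrades *Il6* mRNA, was 1.31-fold lower (edgeR adjusted p = 0.00249). Of the 20 genes 1 was lower (*Zfp36*) and 1 higher (*Zfp36l2*) in the difference of the LPS responses, compared with 6.39% of all tested genes called.

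Among 34 other ligands of these families 7 were tested, and 2 were lower in aged LPS-treated cultures with none higher, compared with 15.0% and 14.0% of all tested genes. The median log2 fold change of the 7 was -0.16. *Lta*, the neighbour of *Tnf* that encodes lymphotoxin alpha, was 1.86-fold lower, at 2.64 ± 0.260 against 4.92 ± 0.809 CPM (edgeR adjusted p = 3.10e-04). *Tnfsf10*, which encodes TRAIL, was 2.81-fold lower, at 1.68 ± 1.72 against 4.88 ± 1.43 CPM (edgeR adjusted p = 0.0229). It was at 0 CPM in both untreated groups, and *Lta* at 0.0656 CPM in young and 0 in aged ones. Both thus passed the filter through LPS-treated groups, so these values are a description. None of the 7 was called in the difference of the LPS responses, compared with 6.39% of all tested genes.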

How the data were processed

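Poly(A) RNA of 20 BV-2 cultures (4 groups of 5) was sequenced as stranded paired-end libraries. The authors aligned reads to GRCm38 with STAR 2.6.1d and deposited raw gene counts from featureCounts 1.5.1, as whole numbers without normalization. The strand setting is not given in the sources used here. The submitters' processing notes also name GRCh38 and hg19, which have no role stated. All 20 sample columns were used, and of 55487 rows 55141 were matched to symbols and positions in GENCODE M21.

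Groups were compared with edgeR's quasi-likelihood test, in a single fit of the 20 libraries by group with TMM scaling, for the 12799 genes kept by filterByExpr (R 4.3.3 with edgeR 4.0.16 and limma 3.58.1). P-values were adjusted by Benjamini-Hochberg over all of them at 0.05. A prior count of 2 entered log2 CPM, and CPM, RPKM and folds of summed counts used TMM-scaled library sizes. The floor was 3 counts, and intervals (exact, 95%) cover counting error only. Count ratios had 0.5 added and were compared by exact permutation. The cytokine genes and the gene lists were chosen with earlier results of these data known. Named genes were all 10 members, the 3 most alike genes of each tested one (1 of them is not reported here), and at most 4 called genes per list and direction.

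Replicate numbers are given as batch numbers in the labels and so pair the cultures. After subtracting group means, cultures with the same number correlated at a mean of 0.146 across genes (lowest -0.214, highest 0.394), against -0.0358 for other numbers. Between untreated and LPS-treated cultures of the same age the mean was 0.276 in young and 0.26 in aged cultures. It was only 0.0425 between young and aged LPS-treated cultures (from -0.214 to 0.275), against -0.00986 for other numbers. Because group means were subtracted, the values for other numbers largely follow from those for the same number. They are therefore no separate baseline. Between pairs of replicate libraries the variance was 2.42 to 26.8 times that of sampling noise (chi-square per degree of freedom over genes). This ratio grows with the counts and is not a fold difference between libraries.

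Alternatives were DESeq2 (1.42.0), the replicate block in both tools, other scalings, filters and thresholds, only the groups compared, and cultures left out. Leaving out aged LPS-treated culture 3 or young untreated culture 1 alone was chosen after seeing the data. The scripts were tested on simulated data. Sequences and motif searches used Python 3.11.15 with pandas 2.3.3, numpy 2.4.6 and scipy 1.17.1, and figures used matplotlib 3.10.9.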

Additional observations from a re-analysis of the deposited data

Results flagged for a closer look

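The lowest or highest culture stood far from the rest of its group in 3 of the 25 groups of values that were examined for it, by a test that chance passes in about 1 of 20 groups. All 3 are in aged LPS-treated culture 3: *Tnf* at 576 CPM against 401 to 424 in the other 4 cultures, *Il6* at 11.7 CPM against 2.82 to 4.04, and *Il15* at 8.48 CPM against 2.04 to 2.79. The other aged LPS-treated values of this culture were not set apart by the same test, although its *Il27* (4.21 CPM) and *Osm* (39.0 CPM) were the highest and its *Ebi3* (9.79 CPM) the lowest of the group. The cause was not tested.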

How the results depend on the processing

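All 6 tested genes stayed lower in aged LPS-treated cultures, and called, under the 16 alternatives run for that comparison, and the LPS calls in young (6 or more genes) and aged cultures (5) held under theirs. Between untreated cultures 1 gene in place of 2 was called at a threshold of 0.01 and without young untreated culture 1, and 1 to 2 when a replicate number was left out. *Tnf* lost its call without replicate numbers 1, 2, 3 or 5 (edgeR adjusted p = 0.138, 0.146, 0.0576 and 0.056). For the difference of the LPS responses 2 genes were called with the replicate block in either tool, with DESeq2, and without either culture that was left out alone, 1 without a filter on low counts, and 0 to 1 when a replicate number was left out. The block changed no other edgeR call. The ratio of *Il6* to *Tnf* was -1.85 and that of *Ebi3* to *Il27* 2.04 with the replicate block (adjusted p = 0.125, exact sign-flip permutation), and -2.15 to -1.69 and 1.53 to 2.49 with a replicate number left out, where neither passed and 4 against 4 cultures allow no p below 0.0286. For *Il10* to *Tnf* (-1.16 to 0.10) and *Il12b* to *Il23a* (-0.16 to 1.35) the sign turned without replicate number 3, at 0.10 and -0.16. The LPS response of *Il15* in aged cultures ranged from -0.10 (without replicate number 3) to 0.72 with a number left out and was -0.06 without aged LPS-treated culture 3, and *Osm* between untreated cultures ranged from -0.24 to 0.02 (without replicate number 1). Library sizes alone in place of TMM moved the median of all genes by -0.22 in the young and -0.161 in the aged LPS response and turned no direction of a member. Counts of at most 8 limit *Il10*, *Il12b*, *Il23a* and *Lif*. The causes were not tested.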
